A study of Mus musculus with 15 samples.

Results

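The deposited data hold a sheet of SOX2 targets with 81 gene IDs, and 73 of them are described here. The 2 Sox IDs, the 3 keratin IDs (Krt) and the 3 small proline-rich IDs (Sprr) of the sheet were left out by rule, and none of its IDs is an EGFR ligand. The 73 genes are 73 of the 24543 genes of the RPKM table, and neither labels nor files say how the authors chose the sheet's genes. Expression was at least 1 RPKM in at least 3 libraries for 65 of the 73, which were tested, and 8 stayed under that limit. RPKM is a read count divided by the length of the gene and by the depth of the library.

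The study profiled whole mouse skin by RNA sequencing in 15 libraries. All of them came from K14CreERTM/LSL-SOX2 mice (background 129/SvEv/C57/B16 X CD-1), in which tamoxifen activates a Cre recombinase made under the keratin 14 promoter, which is designed to remove the stop element before a SOX2 transgene in basal keratinocytes. The groups were unwounded tamoxifen skin (day 0, 3 libraries, tamoxifen at 5 mg/ml in ethanol, 200 µl), unwounded vehicle skin (day 0, 4 libraries, ethanol), and 2 wounded sets of 4 libraries each from day 4. By the title of the series, the question was how epidermal SOX2 acts on wound healing through EGFR and the MEK/ERK pathway. Every group carries the transgene and none received tamoxifen without it, so SOX2 and tamoxifen itself cannot be told apart. Wounding and day cannot be told apart either. The labels give no age for the mice.

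Treatment names of the 8 wounded libraries conflict. Set B is named tamoxifen in the Group row of the RPKM table, which is followed here, but is recorded as vehicle in the sample records and in the target sheet's own header. Set A is named vehicle in that Group row and recorded as tamoxifen elsewhere. A difference written as set B minus set A is therefore tamoxifen minus vehicle by the Group row, and its sign turns round under the other names. The names of the 7 unwounded libraries agree in all sources.

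SOX2 is an HMG-box transcription factor that binds DNA beside partner factors and maintains progenitor states in embryonic stem cells, neural tissue and several epithelia. In the skin of adult mice its own gene is mainly active in the dermal papilla of hair follicles and in Merkel cells, while the interfollicular epidermis normally makes little. The sheet's genes fall into regulators of keratinocyte and hair differentiation, parts of the BMP, TGF-beta, WNT and Hippo pathways, growth factor and vessel genes, interferon-stimulated genes and others. By the deposited annotation, 20 of the 73 (27.4%) are transcription regulators, against 7.89% of the 13922 genes tested. Growth factors make up 5 of the 73 (6.85%), against 0.539% of the genes tested, and 16.4% lie in the extracellular space, against 6.39%. The sets are unlike, since the 73 include the 8 genes under the expression limit and the 13922 hold none under it.

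Since the sheet is named for SOX2 targets, the promoters of its genes were searched for the SOX core. RefSeq windows of 300 bases on GRCm38.p6, from 250 bases before to 50 after a start site, were found for 51 of the 73 genes, 63 windows in all. The letters CATTGT or CTTTGT, searched on both strands, lay in 11 of the 63 windows (17.5%), against 9394 of all 32851 windows (28.6%). These 11 windows belong to 10 genes, Elf5, Fgf5, Gbp3, Greb1, Ier5, Inhba, Tead2, Tgfb2, Twsg1 and Txnrd1. The core is rich in A and T, and the median GC content was 59.7% in the members' windows and 52.7% in all windows. The AP-1 site TGANTCA was found in 4.76% of members' windows, against 7.81% of all windows, and the antioxidant response core TGACNNNGC in 11.1%, against 12.4%. The interferon response core, 2 runs of GAAA with any 2 bases between, was found in 6 windows, those of Eomes, Gbp3, Irx3, Tgm1, Vegfa and Wls, which is 9.52%, against 3.44% of all windows. A match describes letters in a window and no binding was measured.

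The windows of 5 genes are shown because these genes lead the differences described further on and hold one of the cores. The first 4 have the SOX core in capitals. In Txnrd1 the capitals also take in an antioxidant response core that overlaps it, and in Gbp3 they mark 2 overlapping interferon response cores. The Elf5 window is 1 of 2 in RefSeq, the Txnrd1 window 1 of 3 and the Gbp3 window 1 of 2. Msx2, Frzb, Hrnr, Nrp1, Oasl2 and Pdgfra also lead the unwounded treatment difference, and their windows hold no SOX core. The Oasl2 window has no interferon response core either. The window of Tgfb2, another leading gene, holds a SOX core and is not shown.
Fgf5 (chr5:98253934-98254233, + strand): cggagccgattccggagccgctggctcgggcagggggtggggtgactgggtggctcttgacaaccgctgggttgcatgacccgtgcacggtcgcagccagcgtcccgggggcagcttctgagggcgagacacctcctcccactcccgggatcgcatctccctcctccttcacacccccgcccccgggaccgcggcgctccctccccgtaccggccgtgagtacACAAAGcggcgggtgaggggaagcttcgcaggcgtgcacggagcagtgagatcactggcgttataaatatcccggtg
Elf5 (chr2:103411848-103412147, + strand): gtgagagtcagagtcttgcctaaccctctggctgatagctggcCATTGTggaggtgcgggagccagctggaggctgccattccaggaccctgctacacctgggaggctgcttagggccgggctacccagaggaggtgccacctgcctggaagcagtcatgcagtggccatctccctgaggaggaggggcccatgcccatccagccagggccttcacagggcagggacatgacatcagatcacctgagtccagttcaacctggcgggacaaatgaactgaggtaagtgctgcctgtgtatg
Inhba (chr13:16011601-16011900, + strand): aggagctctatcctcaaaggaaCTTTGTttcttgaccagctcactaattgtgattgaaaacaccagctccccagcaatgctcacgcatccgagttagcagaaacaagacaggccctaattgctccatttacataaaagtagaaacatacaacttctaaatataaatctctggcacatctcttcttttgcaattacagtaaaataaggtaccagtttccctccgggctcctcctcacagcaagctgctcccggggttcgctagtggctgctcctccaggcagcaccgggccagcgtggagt
Txnrd1 (chr10:82858956-82859255, + strand): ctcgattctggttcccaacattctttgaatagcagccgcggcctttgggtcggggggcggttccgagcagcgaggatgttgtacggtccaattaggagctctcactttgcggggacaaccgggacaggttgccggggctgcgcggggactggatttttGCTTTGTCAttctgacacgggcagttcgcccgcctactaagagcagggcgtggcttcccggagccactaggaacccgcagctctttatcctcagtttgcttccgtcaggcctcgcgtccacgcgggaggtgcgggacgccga
Gbp3 (chr3:142559794-142560093, + strand): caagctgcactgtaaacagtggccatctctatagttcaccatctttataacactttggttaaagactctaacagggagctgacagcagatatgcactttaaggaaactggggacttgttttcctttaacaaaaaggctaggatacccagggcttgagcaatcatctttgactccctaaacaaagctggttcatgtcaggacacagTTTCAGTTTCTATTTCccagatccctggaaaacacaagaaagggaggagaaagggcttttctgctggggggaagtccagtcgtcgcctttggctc

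Depth was 39277860 to 75102345 alignments per library. At that depth 3 reads on a gene of 1 kb correspond to 0.0399 to 0.0764 RPKM, a floor that covers counting error only. Sox2 itself was at 1.98 to 2.89 RPKM in unwounded tamoxifen skin, against 1.85 to 2.57 RPKM in unwounded vehicle skin. It was at 2.07 to 2.64 RPKM in set B and 1.87 to 3.82 RPKM in set A, and no label or file header says whether transgene reads are counted in it. The skin check list of keratinocyte and dermal genes was high everywhere, with summed RPKM of 4400.3 to 5389 in unwounded tamoxifen skin, against 9316 to 9833 in unwounded vehicle skin. Other cell types differed far more. Hair markers (11 hair shaft and root sheath genes) summed to 13908 to 20666 RPKM in unwounded tamoxifen skin, against 15.1 to 24.4 RPKM in unwounded vehicle skin. In set B they summed to 2437 to 5117 RPKM, against 12.8, 1331, 39.6 and 17.1 RPKM in libraries 1 to 4 of set A, so library 2 of set A stands apart from its group. The counts and the leading values that rest on set A are therefore also given without that library. Library 4 of set A had the fewest alignments (39277860), and most single gene values are not given without it.

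The sheet's genes leaned to higher expression in unwounded tamoxifen skin, led by the hair and keratinocyte factor genes Msx2, Dlx3 and Elf5 and by Fgf5, while interferon-stimulated genes and Pdgfra were among the lower ones. Of the 65 tested, 34 were higher and 17 lower than in unwounded vehicle skin (limma on log2(RPKM + 0.5), adjusted p under 0.05 over all 13922 genes), together 78.5%. The background was high as well: 69.4% of all genes tested passed, 34.7% higher and 34.7% lower. The median difference was 0.25 on the log2 scale over the 65 genes, against 0.00 over all genes. Libraries of the 2 groups did not overlap for 52 of the 65 genes (80%), against 69.6% of all genes. How the sheet's genes were chosen is not stated, and they may have been picked from these same libraries. The excess over all genes, here and in the comparisons below, therefore only describes the list. All log2 differences here are of log2(RPKM + 0.5), a scale on which changes of low genes come out too small. The error after each is its standard error from limma. In whole skin, fewer cells of a type and less RNA per cell cannot be told apart.

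In wounded skin the lean had the same direction by the Group row's names. Of the 65 genes, 23 were higher and 7 lower in set B than in set A by limma, 46.2% in all, against 31.1% of all genes tested. Of all genes 15.5% were higher and 15.6% lower. The median difference was 0.19 over the 65 genes and 0.00 over all genes. The sets did not overlap for 26 of the 65 genes (40%), against 28.3% of all genes. Without library 2 of set A, 21 genes were higher and 7 lower. Evpl (log2 difference 0.52) and Ppl (0.41) were the 2 that lost their call (limma adjusted p = 0.051 and 0.0518), and no called gene changed sign. Leaving out library 4 of set A instead moved the counts more, to 31 higher and 8 lower. Same-numbered libraries of the sets deviated together, and with the library number as a block 27 genes were higher and 7 lower. That pairing was inferred from these same values, and no label states it. The 4 gained were Acvr2a, Ier5, Nf2 and Nudt21 (limma adjusted p = 0.0389, 0.0499, 0.049 and 0.0321). That block covered all 4 groups. In a fit of sets B and A alone with the block, added after the data were seen, Nf2 and Nudt21 were not gained. Acvr2a, Ier5 and Dusp4 were gained there, and Ppl lost its call (limma adjusted p = 0.0738). Under the names of the sample records the counts of the main fit turn round, with 7 higher and 23 lower.

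**Figure D1:**
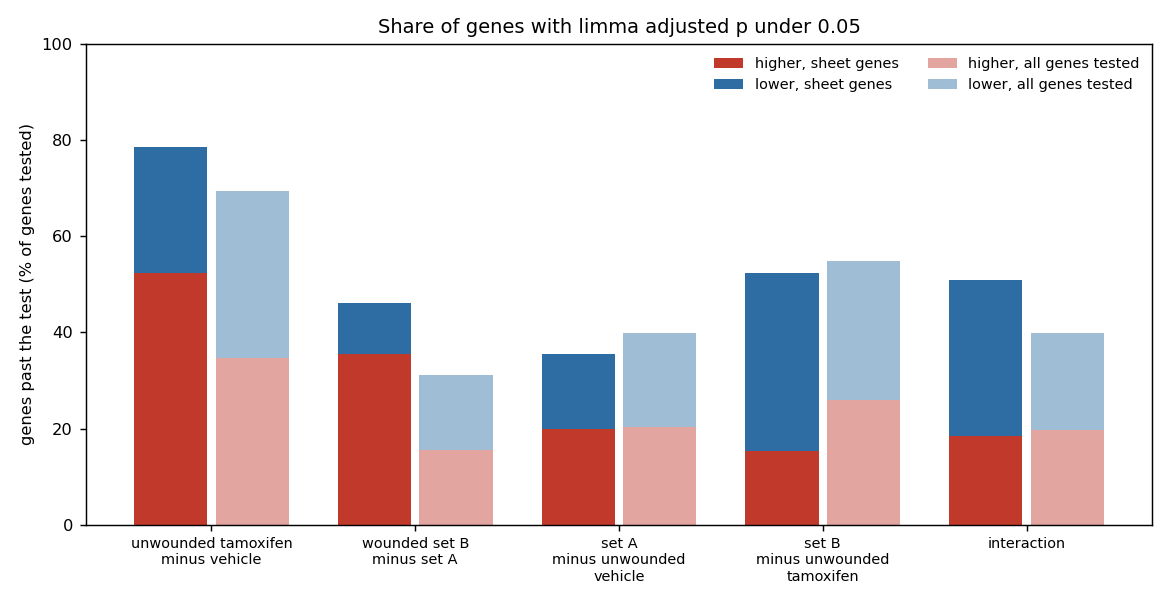
Share of genes past limma's threshold (adjusted p under 0.05, y axis, % of genes tested) in 5 comparisons, for the 65 sheet genes (dark bars) and all 13922 genes (pale bars), with higher genes in red below lower genes in blue. In unwounded skin 78.5% of sheet genes and 69.4% of all genes passed, and between the wounded sets 46.2% and 31.1%.

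The 2 treatment differences share no library, and their calls are set side by side here. Both come from the same fit, with a shared estimate of the spread of each gene, so the calls are not independent. Of the 65 genes, 22 were higher in both and 7 lower in both, and none passed with opposite signs. In unwounded skin alone 22 genes passed, between the wounded sets alone only Crabp2 did, and 13 passed in neither. Over all genes tested, 12.4% were higher in both, 13.5% lower in both and 4.12% passed between the wounded sets alone. The 2 differences had the same sign for 57 of the 65 genes (87.7%), against 76.6% of all genes. Pearson's r of the 2 differences was 0.89 across the 65 genes and 0.85 across all genes. These are descriptions across genes of the same libraries, and genes are not independent replicates.

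**Figure D2:**
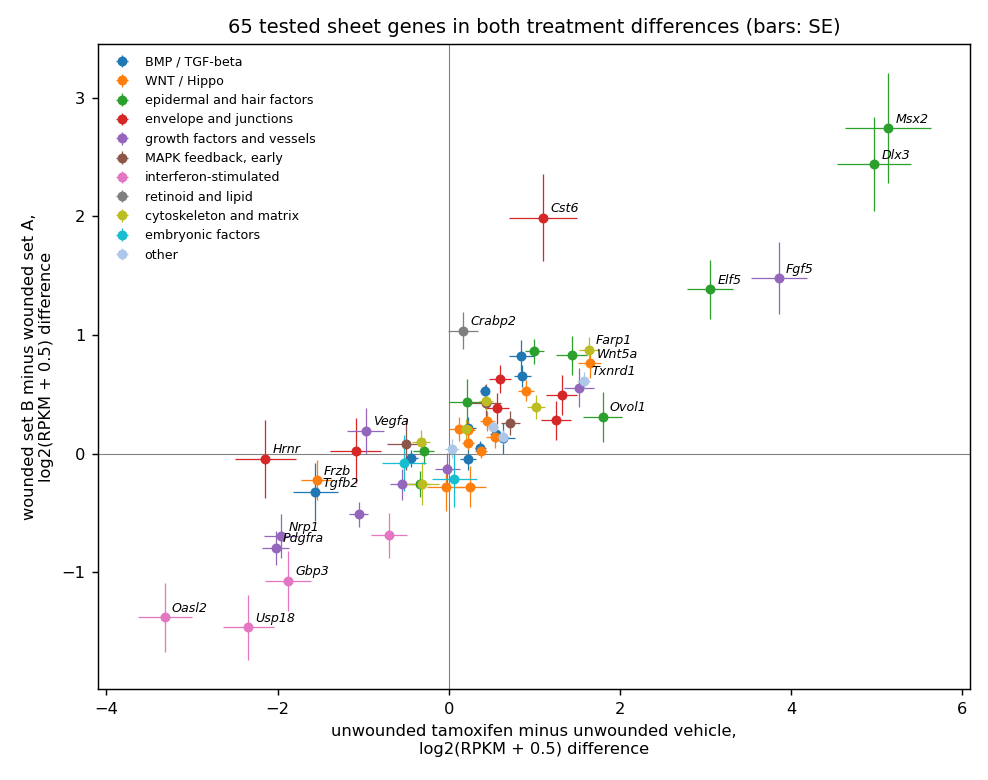
Each point is 1 of the 65 tested sheet genes: x axis, unwounded tamoxifen minus unwounded vehicle; y axis, wounded set B minus wounded set A, both as differences of log2(RPKM + 0.5) with bars of 1 standard error. Colours mark roles. Msx2 and Dlx3 lie far up on both axes and the interferon-stimulated genes Oasl2, Usp18 and Gbp3 far down on both, while Crabp2 and Cst6 lie above the trend.

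Msx2 and Dlx3, which had the largest differences of the sheet in unwounded skin, are transcription factors of hair and keratinocyte differentiation. Of the sheet's factors of this kind, 6 of 9 were higher and 2 lower in unwounded tamoxifen skin. Of all genes tested, 34.7% were higher and 34.7% lower there. Msx2 (chromosome 13, 53466884 to 53473074, mm10, GENCODE M21), a homeodomain factor of the hair matrix, was at 95.4, 86.8 and 103 RPKM in unwounded tamoxifen skin, against 2.44, 2.11, 2.25 and 2.07 RPKM in unwounded vehicle skin. All 3 tamoxifen libraries lay far above all 4 vehicle libraries, a log2 difference of 5.14 ± 0.50 or 35.1-fold (limma adjusted p = 9.72e-07). Dlx3 (chromosome 11, 95120119 to 95125296), a homeodomain factor of hair and upper epidermis, was at 182, 172 and 197 RPKM in unwounded tamoxifen skin, against 5.69, 5.68, 5.56 and 4.66 RPKM in unwounded vehicle skin. Its log2 difference was 4.97 ± 0.43, 31.3-fold (limma adjusted p = 3.41e-07). Elf5 (chromosome 2, 103411688 to 103450989), an ETS factor of glandular and differentiating epithelia whose window with the SOX core is printed above, was at 20.1, 28.6 and 31.3 RPKM in unwounded tamoxifen skin, against 3.4, 3.1, 2.18 and 2.34 RPKM in unwounded vehicle skin. Its groups did not overlap either, with a log2 difference of 3.05 ± 0.27 (limma adjusted p = 4.04e-07). Ovol1 (chromosome 19, 5549136 to 5560646), a zinc finger factor that brings keratinocytes out of the cycle, was at 53.8, 63.4 and 74.7 RPKM in unwounded tamoxifen skin, against 18.1, 22.3, 15.7 and 16 RPKM in unwounded vehicle skin. The lowest tamoxifen library was above the highest vehicle library, and the log2 difference was 1.80 ± 0.23 (limma adjusted p = 1.09e-05).

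Prdm1, a repressor active in terminally differentiating epidermis, averaged 15.2 ± 2.64 RPKM in unwounded tamoxifen skin and 5.28 ± 0.627 RPKM in unwounded vehicle skin (SD, n = 3 and 4), a log2 difference of 1.44 ± 0.18. It was higher, with all tamoxifen libraries above all vehicle libraries (limma adjusted p = 9.31e-06). The fatty acid receptor gene Ppara was lower, with a log2 difference of -0.34 ± 0.12 (limma adjusted p = 0.0217). Ppara passed the filter on low values through the vehicle libraries, where it was higher, which limits what this p-value shows. Klf4, a factor needed for the skin barrier and one of the 6 members with the highest mean RPKM, was at 111, 114 and 115 RPKM in unwounded tamoxifen skin, against 124, 133, 151 and 149.5 RPKM in unwounded vehicle skin. Its groups did not overlap, but the log2 difference of -0.29 ± 0.12 passed barely (limma adjusted p = 0.0454) and lost its call when any 1 of 12 of the 15 libraries was left out, with adjusted p of 0.0503 to 0.109 by limma. Irx3 did not pass, with a log2 difference of 0.21 ± 0.21 (95% interval -0.24 to 0.66).

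Between the wounded sets 5 of these 9 factors were higher in set B and none was lower, against 15.5% and 15.6% of all genes. Msx2 was at 10.7, 19.3, 21.8 and 17.2 RPKM in set B, against 0.974, 9.42, 1.11 and 1.34 RPKM in set A. The lowest library of set B was still above library 2 of set A, which itself was the highest of its set by far. The log2 difference was 2.74 ± 0.46 (limma adjusted p = 0.000665), and 3.39 without that library. Dlx3 was at 26, 43.1, 50.6 and 38.6 RPKM in set B, against 3.54, 19.3, 3.42 and 7.96 RPKM in set A. Here too the sets did not overlap and library 2 of set A was the highest of its set, with a log2 difference of 2.44 ± 0.40 (limma adjusted p = 0.000512) and of 2.93 without it. Elf5 was at 5.85, 10.4, 9.04 and 10.1 RPKM in set B, against 2.69, 4.91, 1.77 and 3.34 RPKM in set A, a log2 difference of 1.39 ± 0.25 (limma adjusted p = 0.00104). It was 1.59 without library 2 of set A. Prdm1 was higher in set B by 0.83 ± 0.17 (limma adjusted p = 0.00216). Ovol1, with 27.4, 35.3, 35.7 and 38.7 RPKM in set B, against 20.7, 32.9, 19.7 and 41.4 RPKM in set A, overlapped between the sets and did not pass (0.31 ± 0.21, 95% interval -0.15 to 0.77).

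Hair markers moved with these factors. All 11 of the hair list passed as higher in unwounded tamoxifen skin, with a median log2 difference of 9.57, and all 11 as higher in set B than in set A, with a median of 5.71. Msx2 is itself on that list, and none of the 11 was at 0 in every library. Cell cycle markers were higher for 6 of 6 in unwounded tamoxifen skin, with a median log2 difference of 0.99 and summed RPKM of 149.9 to 216, against 107 to 115 in unwounded vehicle skin. Between the wounded sets they summed to 161 to 173 RPKM in set B, against 139.9 to 167 RPKM in set A. The part of hair follicle content and of cell cycling in the differences of Msx2, Dlx3 and Elf5 was not tested.

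**Figure D3:**
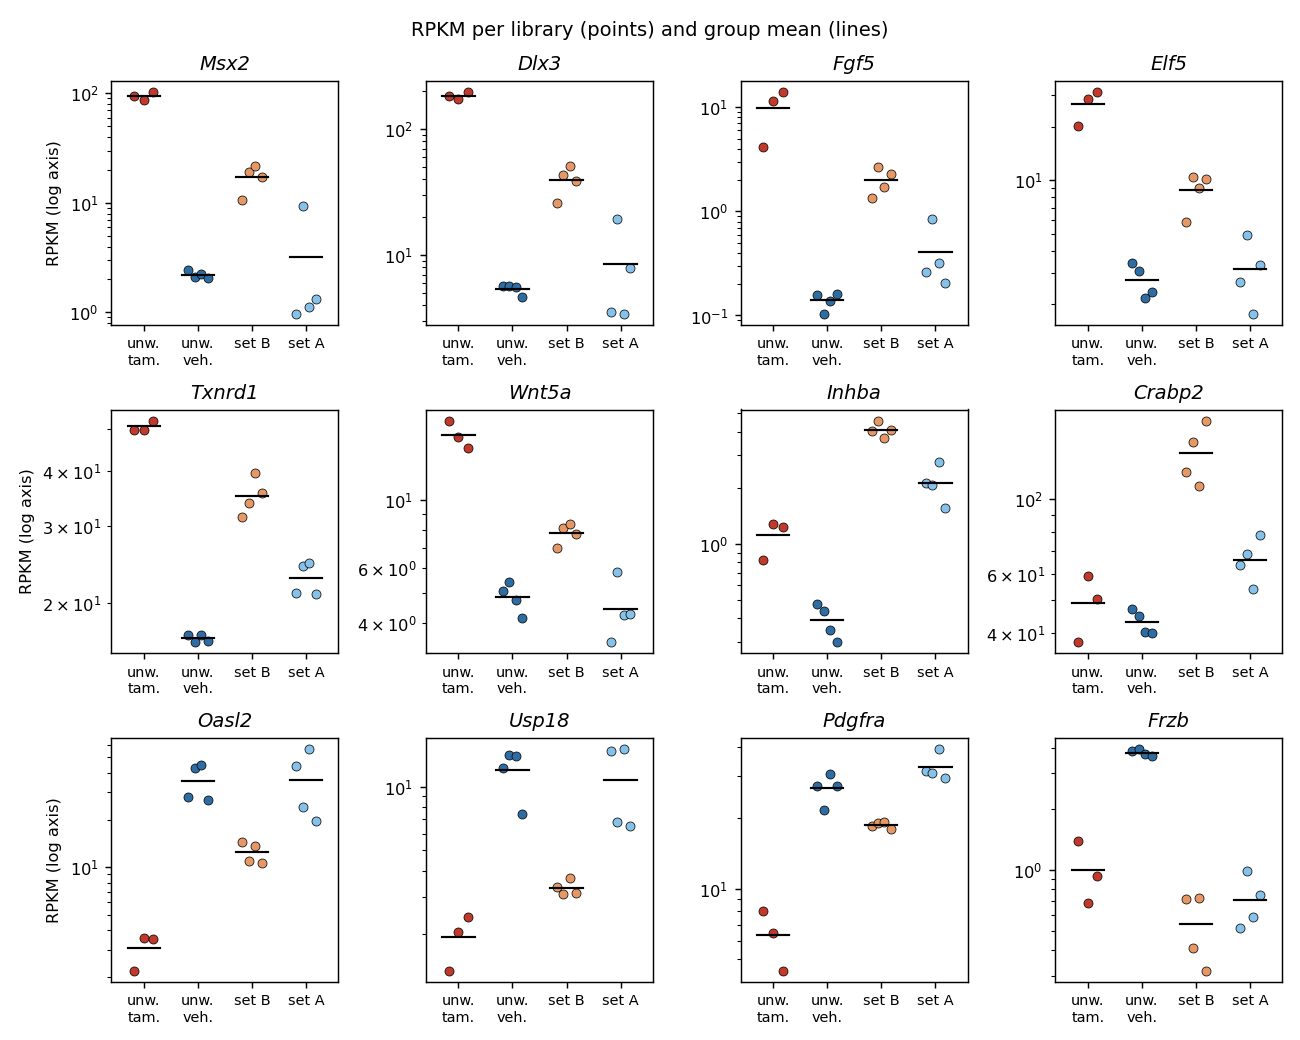
RPKM (log axes) of 12 sheet genes in every library (points, unwounded tamoxifen, unwounded vehicle, set B and set A from left to right) with the group mean as a line. Msx2, Dlx3, Fgf5 and Elf5 are highest in unwounded tamoxifen skin, with library 2 of set A above the rest of its set, while Crabp2 and Inhba are highest in set B and Oasl2, Usp18 and Pdgfra are lowest in unwounded tamoxifen skin.

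Genes of the cornified envelope and of the junctions that anchor keratin filaments split by kind. In unwounded tamoxifen skin the cross-linking enzyme, the plakins and the protease inhibitor were higher (5 of 7), and the envelope and filament matrix proteins Lor and Hrnr were lower. The shares of all genes were 34.7% higher and 34.7% lower. Tgm1 (chromosome 14, 55700009 to 55713926), the transglutaminase that cross-links the envelope, was at 52.3, 60.1 and 69.2 RPKM in unwounded tamoxifen skin, against 27.5, 31.7, 20.9 and 21.4 RPKM in unwounded vehicle skin. Its groups did not overlap and its log2 difference was 1.25 ± 0.18 (limma adjusted p = 2.7e-05). The plakins link keratin filaments to desmosomes and envelope. Evpl averaged 56.3 ± 12.9 RPKM in unwounded tamoxifen skin and 21.8 ± 1.22 RPKM in unwounded vehicle skin, a log2 difference of 1.32 ± 0.18 (limma adjusted p = 2.15e-05). Dsp, at 192, 227 and 209.8 RPKM in unwounded tamoxifen skin, against 135, 144, 138 and 134 RPKM in unwounded vehicle skin, was higher by 0.60 ± 0.13 on the log2 scale (limma adjusted p = 0.000925), and Ppl by 0.56 ± 0.14 (limma adjusted p = 0.00311). Cst6, an inhibitor of cathepsins and legumain with the highest mean RPKM of all 73 genes, was at 266, 569 and 641 RPKM in unwounded tamoxifen skin, against 247, 257, 173 and 189 RPKM in unwounded vehicle skin. Library 2 of the tamoxifen group lay just above the vehicle group and the other two far above it, a log2 difference of 1.10 ± 0.40 (limma adjusted p = 0.0241). Its call was lost when library 3 or 4 of either unwounded group was left out (limma adjusted p = 0.0519 to 0.11).

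Lor (chromosome 3, 92080271 to 92083142), which encodes loricrin, a main protein of the envelope, was at 221, 157 and 161 RPKM in unwounded tamoxifen skin, against 479, 303, 377 and 373 RPKM in unwounded vehicle skin. The tamoxifen libraries were all below the vehicle libraries, with a log2 difference of -1.09 ± 0.30 (limma adjusted p = 0.00493). Hrnr (chromosome 3, 93319749 to 93333570), which encodes hornerin, a relative of filaggrin, was at 6.92, 5.54 and 2.53 RPKM in unwounded tamoxifen skin, against 26.4, 28.4, 18.6 and 17.2 RPKM in unwounded vehicle skin, a log2 difference of -2.14 ± 0.36 without overlap (limma adjusted p = 0.000117). Neither passed between the wounded sets. Lor was at 221, 134, 176 and 134 RPKM in set B, against 153, 138, 102 and 299 RPKM in set A (log2 difference 0.03 ± 0.27, 95% interval -0.56 to 0.62), and Hrnr had a log2 difference of -0.04 ± 0.33 (95% interval -0.75 to 0.67).

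In wounded skin Cst6 showed the third largest difference of the sheet. It was at 424, 765, 429 and 1049.7 RPKM in set B, against 133, 148, 102 and 289 RPKM in set A, so the sets did not overlap although each spread widely, with a log2 difference of 1.99 ± 0.37 (limma adjusted p = 0.00131). Dsp was higher in set B by 0.63 ± 0.12 (limma adjusted p = 0.00149), Evpl by 0.49 ± 0.17 (limma adjusted p = 0.0388) and Ppl by 0.38 ± 0.13 (limma adjusted p = 0.0421), while Tgm1, with 0.28 ± 0.16, did not pass. The log2 difference was 1.97 for Cst6 and 0.66 for Dsp when library 2 of set A was left out. The members of this group moved together among the libraries of set A. Library 4 of set A was the highest of its set for 7 of the 7 genes, and library 3 the lowest for 6. The pattern was not confined to this group. Of all 65 genes, library 4 was the highest for 31 and library 3 the lowest for 24. Of the 9 hair and keratinocyte factors, library 4 was the highest for 6 and library 3 the lowest for 7. Basal keratinocyte markers stood beside this: 4 of 6 were higher in set B, with summed RPKM of 7064 to 8718 in set B and 4966 to 8295 in set A, whereas in unwounded skin 3 of 6 were lower with tamoxifen. Their part in these differences was not tested.

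BMP and TGF-beta signalling controls hair cycling, keratinocyte growth and scarring. Of the sheet's 10 genes of this pathway, 6 were higher and 2 lower in unwounded tamoxifen skin, against 34.7% and 34.7% of all genes. The receptor genes were among the higher ones. Bmpr1a, a type I receptor for BMPs, averaged 25.3 ± 1.86 RPKM in unwounded tamoxifen skin and 13.7 ± 0.343 RPKM in unwounded vehicle skin, a log2 difference of 0.86 ± 0.10 (limma adjusted p = 4.78e-06). Acvr1, a type I receptor for BMPs and activins, was higher by 0.42 ± 0.06 (limma adjusted p = 1.47e-05), while the type II receptor gene Acvr2a, with 0.22 ± 0.10, did not pass. Downstream, Smad1, which carries BMP signals, was higher by 0.56 ± 0.07 and Smad4, the common partner, by 0.37 ± 0.06 (limma adjusted p = 1.21e-05 and 0.000148). Inhba (chromosome 13, 16011851 to 16031621), which encodes the activin A subunit, was at 0.818, 1.29 and 1.23 RPKM in unwounded tamoxifen skin, against 0.479, 0.436, 0.348 and 0.298 RPKM in unwounded vehicle skin. Even the higher group was near 1 RPKM, and the log2 difference was 0.85 ± 0.15 without overlap (limma adjusted p = 0.000154). The extracellular BMP modulator Bmper was higher by 0.63 ± 0.14 and another, Twsg1, lower with a log2 difference of -0.44 ± 0.08 (limma adjusted p = 0.00103 and 0.000216). Tgfb2 (chromosome 1, 186622792 to 186705989), the ligand, was at 3.23, 2.69 and 3.04 RPKM in unwounded tamoxifen skin, against 9.24, 5.41, 15.3 and 11.7 RPKM in unwounded vehicle skin. The vehicle libraries spread widely and still all lay above the tamoxifen libraries, with a log2 difference of -1.56 ± 0.26 (limma adjusted p = 0.000133). The adaptor gene Ecsit did not pass (0.23 ± 0.10).

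Between the wounded sets 3 of the 10 were higher in set B and none lower, near the 31.1% of all genes that passed either way. Inhba was at 4.03, 4.58, 3.68 and 4.1 RPKM in set B, against 2.12, 2.06, 2.75 and 1.56 RPKM in set A, all set B libraries above all set A libraries, a log2 difference of 0.83 ± 0.13 (limma adjusted p = 0.000529). Bmpr1a was higher by 0.65 ± 0.09 (limma adjusted p = 0.00023) and Acvr1 by 0.53 ± 0.05 (limma adjusted p = 1.97e-05). These 3 differences were 0.82, 0.71 and 0.55 without library 2 of set A. For Tgfb2 the sets overlapped, with 3.04, 2.74, 2.51 and 2.67 RPKM in set B, against 4.41, 3.33, 4.51 and 2.36 RPKM in set A (log2 difference -0.32 ± 0.24, 95% interval -0.85 to 0.20).

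The WNT pathway drives hair follicle formation, and the Hippo pathway restrains growth through YAP1 and its TEAD partners. Of 11 sheet genes from these pathways, 7 were higher and 1 lower in unwounded tamoxifen skin. In all, that is near the 69.4% of all genes tested that passed. By direction it is not, since 34.7% of all genes tested were higher and 34.7% lower. Wnt5a (chromosome 14, 28504750 to 28527448), a ligand that signals mostly without beta-catenin, was at 18, 16 and 14.7 RPKM in unwounded tamoxifen skin, against 5.06, 5.42, 4.75 and 4.14 RPKM in unwounded vehicle skin. The tamoxifen libraries all lay far above the vehicle libraries, by 1.65 ± 0.13 on the log2 scale (limma adjusted p = 2.03e-07). Wls, which carries WNT proteins to the cell surface, was higher by 0.38 ± 0.07 (limma adjusted p = 0.000161). Ctnnb1 (chromosome 9, 120929216 to 120960507), which encodes beta-catenin, was at 258, 234 and 226 RPKM in unwounded tamoxifen skin, against 130.1, 123, 129 and 128 RPKM in unwounded vehicle skin, a log2 difference of 0.91 ± 0.09 without overlap (limma adjusted p = 1.71e-06). Axin1, a scaffold of the complex that degrades beta-catenin, was higher by 0.23 ± 0.07 (limma adjusted p = 0.00913). Of the Hippo genes, Tead2 was higher by 0.54 ± 0.11, Yap1 by 0.45 ± 0.09 and the upstream regulator Nf2 by 0.22 ± 0.09 (limma adjusted p = 0.000451, 0.000462 and 0.0323), while Tead1 did not pass (0.12 ± 0.11).

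The secreted WNT inhibitor gene Frzb (chromosome 2, 80411970 to 80447625) went the other way, at 1.38, 0.681 and 0.93 RPKM in unwounded tamoxifen skin, against 3.87, 3.94, 3.72 and 3.63 RPKM in unwounded vehicle skin. The vehicle libraries lay close together and above all tamoxifen libraries, a log2 difference of -1.54 ± 0.18 (limma adjusted p = 4.69e-06). Frzb passed the filter on low values through the vehicle libraries, where it was high, which limits what this p-value shows. Apcdd1, a membrane inhibitor of WNT, and Tnfrsf19, a receptor of the TNF family and WNT target, did not pass, with 0.25 ± 0.19 and -0.03 ± 0.21. In wounded skin 3 of the 11 were higher in set B and none lower, near the 31.1% of all genes that passed either way. Wnt5a was at 6.97, 8.11, 8.32 and 7.76 RPKM in set B, against 3.46, 5.83, 4.24 and 4.25 RPKM in set A. The sets did not overlap, and library 2 of set A was nearest to set B, with a log2 difference of 0.76 ± 0.12 (limma adjusted p = 0.000504). Ctnnb1, at 165, 197, 189.9 and 223 RPKM in set B, against 119.8, 148, 129 and 138 RPKM in set A, was higher by 0.53 ± 0.09 (limma adjusted p = 0.000558), and Yap1 by 0.27 ± 0.08 (limma adjusted p = 0.0218). With library 2 of set A left out, the differences were 0.89 for Wnt5a, 0.58 for Ctnnb1 and 0.29 for Yap1. Frzb, with 0.714, 0.412, 0.721 and 0.317 RPKM in set B, against 0.517, 0.986, 0.584 and 0.75 RPKM in set A, overlapped between the sets and did not pass (-0.22 ± 0.17, 95% interval -0.58 to 0.13).

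Growth factor, receptor and vessel genes went both ways in unwounded tamoxifen skin, with 2 of 8 higher and 5 lower. Over all genes 34.7% were higher and 34.7% lower. Fgf5 (chromosome 5, 98254184 to 98277030), the factor that ends the growth phase of the hair cycle, was at 4.14, 11.4 and 14 RPKM in unwounded tamoxifen skin, against 0.158, 0.104, 0.139 and 0.161 RPKM in unwounded vehicle skin. Every vehicle library was far below 1 RPKM and every tamoxifen library above 4, a log2 difference of 3.86 ± 0.33 (limma adjusted p = 3.29e-07). Fgf5 passed the filter on low values only through unwounded tamoxifen skin and set B, where it was high. This limits what its p-values show, here and below. Epha2, an ephrin receptor of keratinocytes, was at 24.9, 22 and 22.4 RPKM in unwounded tamoxifen skin, against 8.61, 8.73, 6.69 and 6.96 RPKM in unwounded vehicle skin, a log2 difference of 1.52 ± 0.18 without overlap (limma adjusted p = 4.73e-06). Pdgfra (chromosome 5, 75152292 to 75198215), the PDGF receptor of fibroblasts, was at 8.01, 6.49 and 4.48 RPKM in unwounded tamoxifen skin, against 27.3, 21.6, 30.8 and 27.3 RPKM in unwounded vehicle skin. All tamoxifen libraries were below all vehicle libraries, with a log2 difference of -2.02 ± 0.16 (limma adjusted p = 1.46e-07). Nrp1 (chromosome 8, 128358604 to 128503363), a co-receptor for semaphorins and VEGF, was at 6.95, 5.75 and 5.13 RPKM in unwounded tamoxifen skin, against 21.9, 17.2, 32.3 and 29 RPKM in unwounded vehicle skin, a log2 difference of -1.96 ± 0.20 (limma adjusted p = 1.42e-06). The endothelial adhesion gene Pecam1 was lower, with a log2 difference of -1.05 ± 0.11 (limma adjusted p = 2.69e-06). So were the vessel growth factor gene Vegfa, with -0.97 ± 0.21 (limma adjusted p = 0.00107), and Angpt1, a ligand of the endothelial TIE2 receptor, with -0.54 ± 0.14 (limma adjusted p = 0.00377). Irs1, an adaptor of insulin signalling, did not pass (-0.02 ± 0.14).

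Between the wounded sets 2 of the 8 were higher and 3 lower in set B, against 15.5% and 15.6% of all genes. Fgf5 was at 1.33, 2.65, 1.72 and 2.28 RPKM in set B, against 0.259, 0.853, 0.317 and 0.204 RPKM in set A, with all set B libraries above set A and a log2 difference of 1.48 ± 0.31 (limma adjusted p = 0.00258). Without library 2 of set A, the highest of its set, the difference was 1.69. Epha2 was higher by 0.55 ± 0.16 (limma adjusted p = 0.0198). Pdgfra was at 18.5, 18.9, 19.2 and 17.9 RPKM in set B, against 31.6, 31, 39.3 and 29.7 RPKM in set A, so all 4 set B libraries were below set A, with a log2 difference of -0.80 ± 0.14 (limma adjusted p = 0.00118). Nrp1 was at 16.5, 14.7, 13.3 and 11.9 RPKM in set B, against 26.6, 20.4, 27.2 and 18.9 RPKM in set A, a log2 difference of -0.70 ± 0.18 without overlap (limma adjusted p = 0.0112). Pecam1 was at 38.7, 31.7, 39.2 and 32.7 RPKM in set B, against 45.8, 57.5, 57.3 and 43.8 RPKM in set A, again without overlap, a log2 difference of -0.51 ± 0.11 (limma adjusted p = 0.00265). The differences were 0.60 for Epha2, -0.82 for Pdgfra, -0.75 for Nrp1 and -0.45 for Pecam1 when library 2 of set A was left out. Vegfa did not pass (0.19 ± 0.20, 95% interval -0.23 to 0.61).

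Fibroblast markers moved with Pdgfra, which is one of the 6 on that list. In unwounded tamoxifen skin 6 of 6 were lower, with summed RPKM of 1559 to 3750.3 against 4884 to 9237 in unwounded vehicle skin. In set B 3 of 6 were lower, with 3064 to 4470.2 against 4300.4 to 7989 in set A. Skeletal muscle markers were lower in unwounded tamoxifen skin for 5 of 5, with 1819.6 to 3879 against 6109.6 to 9706 RPKM in unwounded vehicle skin. None of these markers was at 0 in every library, and their part in the results was not tested.

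The 4 interferon-stimulated genes of the sheet were lower in both treatment differences, as were 13.5% of all genes. Oasl2 (chromosome 5, 114896936 to 114912234), which encodes a relative of the antiviral oligoadenylate synthetases, was at 2.2, 3.55 and 3.48 RPKM in unwounded tamoxifen skin, against 28, 42.8, 44.7 and 26.9 RPKM in unwounded vehicle skin. Its groups did not overlap, and its log2 difference of -3.32 ± 0.32 was the largest fall in the sheet (limma adjusted p = 8.14e-07). Usp18 (chromosome 6, 121245906 to 121270917), the protease that removes ISG15 from proteins and dampens interferon signalling, was at 1.34, 2.05 and 2.41 RPKM in unwounded tamoxifen skin, against 12.2, 14.2, 14 and 7.44 RPKM in unwounded vehicle skin, a log2 difference of -2.34 ± 0.30 (limma adjusted p = 1.08e-05). Gbp3 (chromosome 3, 142560026 to 142573209), a guanylate-binding protein gene whose printed window holds the interferon response cores, was at 2.74, 2.5 and 2.72 RPKM in unwounded tamoxifen skin, against 9.89, 13.3, 14.1 and 8.09 RPKM in unwounded vehicle skin, a log2 difference of -1.88 ± 0.27 (limma adjusted p = 3.66e-05). Neither gene overlapped between the groups. Gbp4, of the same family, was at 2.09, 1.47 and 1.95 RPKM in unwounded tamoxifen skin, against 3.08, 4.54, 3.37 and 2.39 RPKM in unwounded vehicle skin, lower with a log2 difference of -0.70 ± 0.21 (limma adjusted p = 0.00856).

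In wounded skin Oasl2 was at 14.6, 10.9, 13.6 and 10.7 RPKM in set B, against 43.8, 24, 56.5 and 19.7 RPKM in set A, a log2 difference of -1.38 ± 0.29 (limma adjusted p = 0.00302). Usp18 was at 3.35, 3.11, 3.7 and 3.12 RPKM in set B, against 14.8, 6.8, 15.1 and 6.52 RPKM in set A, a log2 difference of -1.47 ± 0.28 (limma adjusted p = 0.00142). For both genes all set B libraries were below all set A libraries, and libraries 1 and 3 of set A were well above libraries 2 and 4. Gbp3, at 5.14, 4.11, 3.77 and 4.06 RPKM in set B, against 14.3, 6.52, 13.9 and 6.11 RPKM in set A, had a log2 difference of -1.07 ± 0.25, and Gbp4, at 1.79, 1.39, 1.13 and 1.42 RPKM in set B, against 3.83, 2.17, 2.77 and 1.92 RPKM in set A, one of -0.69 ± 0.19 (limma adjusted p = 0.00583 and 0.0149), also without overlap. Without library 2 of set A the 4 log2 differences were -1.53 for Oasl2, -1.64 for Usp18, -1.24 for Gbp3 and -0.76 for Gbp4. Macrophage markers stood beside these falls. In unwounded tamoxifen skin 6 of 6 were lower, with summed RPKM of 171 to 228 against 1288 to 2368 in unwounded vehicle skin, and in set B 3 of 6 were lower, with 957 to 1403 against 1143 to 2699 in set A. Their part in the interferon genes' differences was not tested.

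Feedback and early genes of the MAPK pathway, the pathway named in the title of the series, are 3 in the sheet, and 2 were higher in unwounded tamoxifen skin. Of all genes tested 34.7% were higher there. Ier5, an immediate early gene, averaged 17.6 ± 1.11 RPKM in unwounded tamoxifen skin and 10.6 ± 1.54 RPKM in unwounded vehicle skin, a log2 difference of 0.72 ± 0.11 (limma adjusted p = 6.35e-05). Dusp4, a phosphatase of ERK, was higher by 0.43 ± 0.18 (limma adjusted p = 0.0461). Dusp1, which acts mostly on p38 and JNK, had -0.49 ± 0.23 and did not pass. With the library number as a block, Dusp4 lost its call in unwounded skin (limma adjusted p = 0.0918). Dusp1 was then lower with -0.54 (limma adjusted p = 0.00905), although these groups were not taken as paired. Between the wounded sets the calls of Ier5 and Dusp4 turned on the pairing, which was inferred from these same values and is stated by no label. Ier5 was at 16, 17.7, 15.8 and 19.2 RPKM in set B, against 13.9, 14.5, 12.6 and 16.3 RPKM in set A, higher in set B in 4 of 4 same-numbered pairs. Its log2 difference of 0.26 ± 0.10 (95% interval 0.04 to 0.48) did not pass without the pairing (limma adjusted p = 0.0742) and passed barely with the library number as a block (limma adjusted p = 0.0499). Dusp4 was at 2.17, 3.0, 2.8 and 3.92 RPKM in set B, against 1.68, 2.36, 1.68 and 2.62 RPKM in set A, also higher in set B in 4 of 4 pairs. Its log2 difference of 0.42 ± 0.17 (95% interval 0.07 to 0.78) passed neither without the pairing nor with the block over all groups (limma adjusted p = 0.0693 and 0.0707). In a fit of sets B and A alone with the block, added after the data were seen, both passed (limma adjusted p = 0.0202 for Ier5 and 0.0192 for Dusp4). Dusp1 did not pass, with 0.08 ± 0.21 (95% interval -0.38 to 0.54).

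Crabp2 (chromosome 3, 87948666 to 87953376), which delivers retinoic acid to its nuclear receptors, was the one gene that passed between the wounded sets and not in unwounded skin. It was at 121, 148, 109 and 171 RPKM in set B, against 63.9, 68.7, 53.9 and 78.1 RPKM in set A. All set B libraries lay well above set A, by 1.04 ± 0.16 on the log2 scale (limma adjusted p = 0.000355). The difference was 1.06 without library 2 of set A. In unwounded skin it was at 37.6, 59.1 and 50.6 RPKM in unwounded tamoxifen skin, against 47, 44.8, 40.4 and 40.1 RPKM in unwounded vehicle skin, and the groups overlapped (0.17 ± 0.17, 95% interval -0.20 to 0.53). The test of the difference between the 2 differences is given with the interaction.

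Among the 6 cytoskeleton and matrix genes 3 were higher and 1 lower in unwounded tamoxifen skin, and 3 were higher in set B. Over all genes 34.7% were higher and 34.7% lower in unwounded tamoxifen skin, and 15.5% were higher in set B. Farp1 (chromosome 14, 121035200 to 121283744), an exchange factor for small GTPases, was at 18.2, 18.7 and 18.9 RPKM in unwounded tamoxifen skin, against 5.56, 5.15, 6.12 and 5.73 RPKM in unwounded vehicle skin. The spread within either group was small, and the log2 difference was 1.64 ± 0.11 (limma adjusted p = 6.3e-08). In wounded skin Farp1 was at 8.73, 11.6, 12.4 and 12.8 RPKM in set B, against 5.29, 6.06, 6.79 and 5.6 RPKM in set A, without overlap, a log2 difference of 0.87 ± 0.10 (limma adjusted p = 7.42e-05). It was 0.89 without library 2 of set A. Cobll1, a relative of the actin nucleator cordon-bleu, was higher by 1.02 ± 0.11 with tamoxifen in unwounded skin and by 0.39 ± 0.10 in set B (limma adjusted p = 1.67e-06 and 0.00795). Macf1, which links actin and microtubules, was higher by 0.44 ± 0.08 in unwounded tamoxifen skin and by 0.44 ± 0.08 in set B (limma adjusted p = 0.000328 and 0.000811). The kinesin gene Kif16b was lower in unwounded tamoxifen skin alone (-0.32 ± 0.11), and Nckap1, of the actin regulator WAVE, and the matrix gene Efemp1 passed in neither.

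Txnrd1 (chromosome 10, 82833951 to 82897712), which encodes thioredoxin reductase of the cytosol and holds the overlapping SOX and antioxidant response cores in its printed window, had the smallest adjusted p of the sheet in unwounded skin. It was at 49.8, 49.8 and 52.2 RPKM in unwounded tamoxifen skin, against 16.9, 16.3, 16.9 and 16.4 RPKM in unwounded vehicle skin. Libraries within a group hardly differed, and the log2 difference was 1.58 ± 0.08 (limma adjusted p = 8.26e-09). It was at 31.4, 33.8, 39.7 and 35.6 RPKM in set B, against 21.1, 24.3, 24.6 and 20.9 RPKM in set A, a log2 difference of 0.62 ± 0.07 without overlap (limma adjusted p = 6.94e-05). It was 0.65 without library 2 of set A. Ppp2ca, the catalytic subunit of phosphatase PP2A and one of the members with the highest mean RPKM, was higher by 0.52 ± 0.06 in unwounded tamoxifen skin and by 0.23 ± 0.06 in set B (limma adjusted p = 4.52e-06 and 0.00711). Nudt21, which helps choose sites of polyadenylation, was higher in unwounded tamoxifen skin by 0.64 ± 0.06 (limma adjusted p = 1.34e-06), and Ankrd17 passed in neither.

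**Figure D4:**
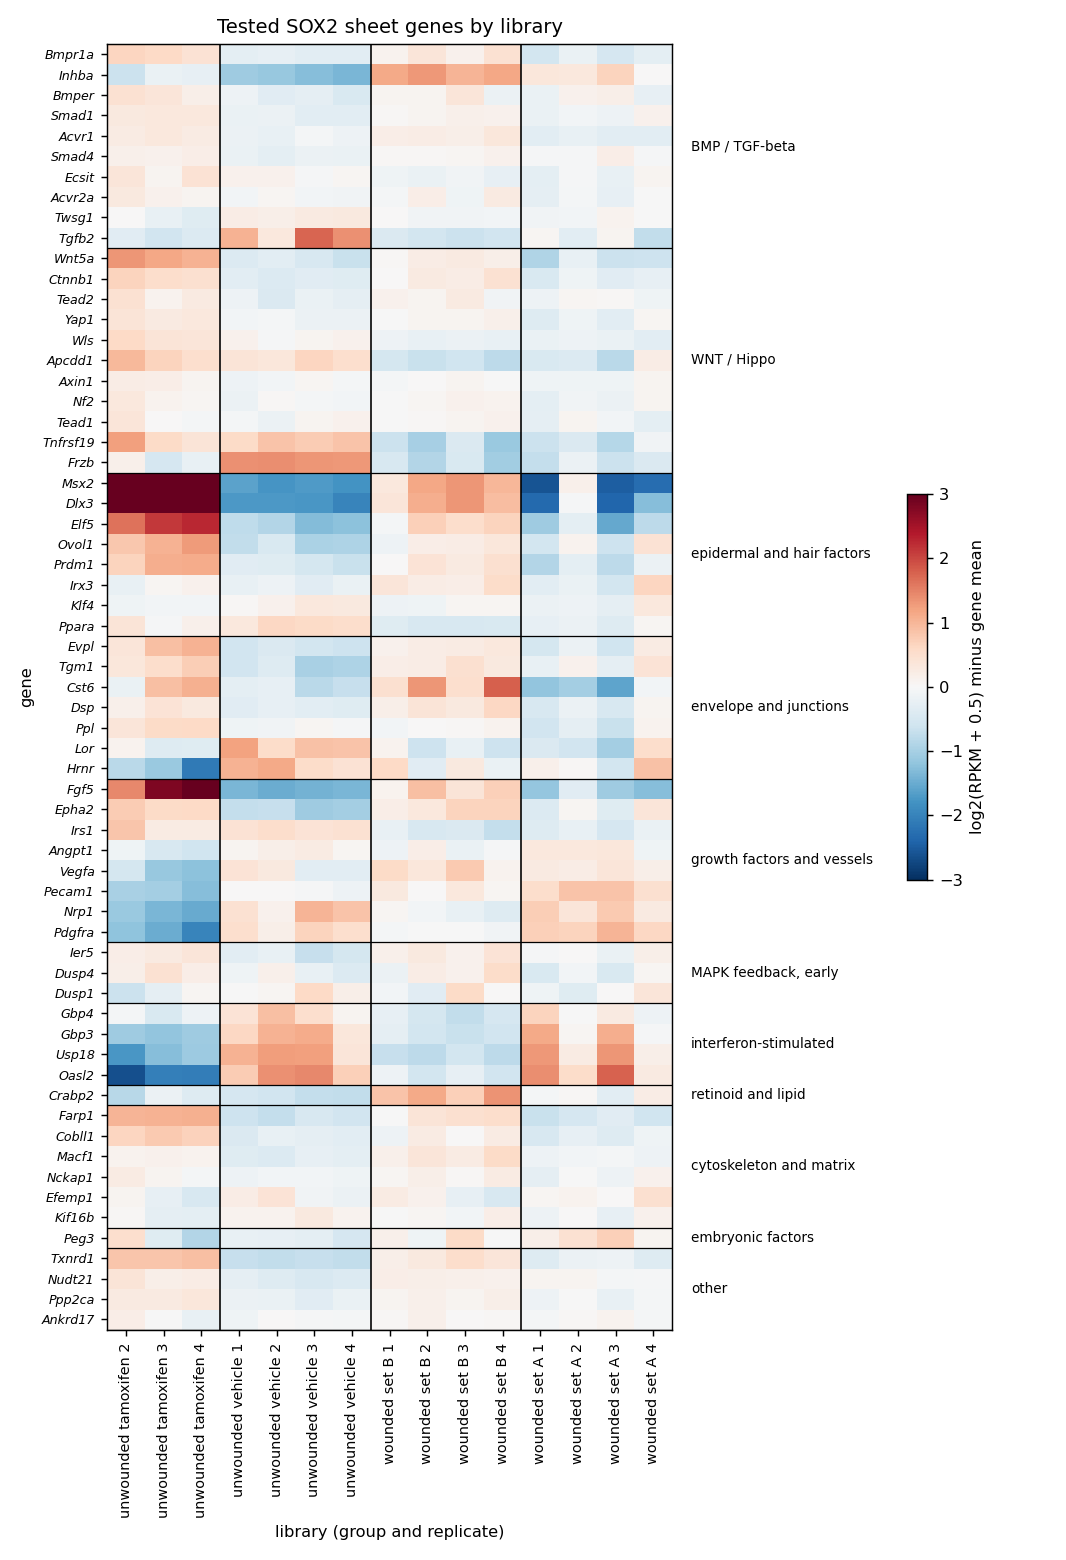
Heat map of 63 of the 65 tested sheet genes (rows, grouped by role) in the 15 libraries (columns), coloured by log2(RPKM + 0.5) minus the gene's mean over all libraries, red high and blue low, with values past 3 or -3 shown in the darkest shade. Unwounded tamoxifen libraries are red for Msx2, Dlx3, Elf5 and Fgf5 and blue for the interferon genes, and libraries 2 and 4 of set A differ from libraries 1 and 3 for several genes.

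The 8 genes under the filter on low values were Cited1, Cyp26a1, Eomes, Fabp1, Fabp2, Foxf1, Greb1 and Lhx5, and none of them was tested. Cyp26a1, the enzyme that breaks down retinoic acid, was at 0.211, 0.745 and 1.43 RPKM in unwounded tamoxifen skin, against 0.0114, 0.0103, 0.0108 and 0.0225 RPKM in unwounded vehicle skin. All 4 vehicle values lie under the floor that 3 reads give a gene of 1 kb, and all 3 tamoxifen values lie above it. Greb1, an early target of the oestrogen receptor, ran the other way, at 0.0912, 0.132 and 0.115 RPKM in unwounded tamoxifen skin, against 0.865, 0.515, 1.23 and 0.921 RPKM in unwounded vehicle skin, and at 0.207, 0.232, 0.13 and 0.333 RPKM in set B, against 1.06, 0.628, 0.902 and 0.389 RPKM in set A. Cited1 reached 0.526 RPKM at most, Eomes 0.365, Foxf1 0.313, Lhx5 0.0619, Fabp1 0.0449 and Fabp2 0.0378 RPKM. Of the embryonic factors over the filter, Peg3, an imprinted zinc finger gene, passed in neither treatment difference. Among the 65 genes over the filter, none reached 1 RPKM in the libraries of 1 group alone. Fgf5 passed it only through unwounded tamoxifen skin and set B, and Frzb and Ppara only through unwounded skin. Frzb and Ppara owed this to the vehicle libraries, where they were higher, since the other libraries alone would not have met the limit. This limits what their p-values show in every comparison that holds unwounded vehicle skin, the interaction included.

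Between wounded skin of day 4 and unwounded skin of day 0 the activin gene Inhba rose in both sets, and the share of sheet genes past the test lay near that of all genes. In set A, the vehicle set by the Group row, 13 of 65 were higher and 10 lower than in unwounded vehicle skin, 35.4%, against 39.8% of all genes tested. The groups did not overlap for 23 of the 65 genes (35.4%), against 35.8% of all genes. The median difference was -0.05 over the 65 genes and 0.01 over all genes. Without library 2 of set A, 9 were higher and 11 lower: Macf1, Ovol1, Peg3 and Smad1 lost their call, and Msx2 was lower (-0.73, limma adjusted p = 0.0075), against -0.08 with that library. Under the names of the sample records the vehicle set is set B, and then 32 were higher and 17 lower. Inhba had the largest rise, at 2.12, 2.06, 2.75 and 1.56 RPKM in set A, against 0.479, 0.436, 0.348 and 0.298 RPKM in unwounded vehicle skin. Every wounded library lay above every unwounded one, by 1.54 ± 0.13 on the log2 scale (limma adjusted p = 2.7e-06). Next came Epha2 with 0.79 ± 0.16, Tgm1 with 0.73 ± 0.16 and Pecam1 with 0.72 ± 0.11 (limma adjusted p = 0.00185, 0.00305 and 0.000162). With library 2 of set A left out, the differences were 1.55 for Inhba, 0.74 for Epha2, 0.69 for Tgm1 and 0.66 for Pecam1. Peg3 passed with 0.67 ± 0.24 (limma adjusted p = 0.0409), but lost its call when any 1 of 8 of the 15 libraries was left out (limma adjusted p = 0.0503 to 0.114, and 0.0821 without library 2 of set A).

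Falls in set A were led by Frzb, at 0.517, 0.986, 0.584 and 0.75 RPKM in set A, against 3.87, 3.94, 3.72 and 3.63 RPKM in unwounded vehicle skin, a log2 difference of -1.84 ± 0.17 without overlap (limma adjusted p = 3.36e-06). Tgfb2 was at 4.41, 3.33, 4.51 and 2.36 RPKM in set A, against 9.24, 5.41, 15.3 and 11.7 RPKM in unwounded vehicle skin, a log2 difference of -1.34 ± 0.24 (limma adjusted p = 0.000742). Tnfrsf19 was at 5.19, 6.01, 4.37 and 7.66 RPKM in set A, against 12.7, 15.5, 14.4 and 15.4 RPKM in unwounded vehicle skin, a log2 difference of -1.27 ± 0.20 (limma adjusted p = 0.000244). In all 3 genes the groups did not overlap. Frzb passed the filter on low values only through unwounded skin, where it was higher, which limits what its p-value shows here. Lor was also lower, with -1.24 ± 0.27, and so was Apcdd1, with -0.83 ± 0.17 (limma adjusted p = 0.00282 and 0.00187). The differences were -1.95 for Frzb, -1.32 for Tgfb2, -1.30 for Tnfrsf19, -1.17 for Lor and -0.82 for Apcdd1 when library 2 of set A was left out. Skeletal muscle markers were lower in set A for 5 of 5 and cell cycle markers higher for 5 of 6. Muscle markers summed to 1170.4 to 4084 RPKM in set A and 6109.6 to 9706 RPKM in unwounded vehicle skin, and their part in the falls was not tested.

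In set B, the tamoxifen set by the Group row, 10 of 65 were higher and 24 lower than in unwounded tamoxifen skin, 52.3%, against 54.8% of all genes tested. Of the sheet 36.9% were lower, against 28.9% of all genes. The groups did not overlap for 35 of the 65 genes (53.8%), against 58% of all genes. Under the names of the sample records the tamoxifen set is set A, and then 11 were higher and 38 lower. Hair and keratinocyte factor genes led the falls. Msx2 was at 10.7, 19.3, 21.8 and 17.2 RPKM in set B, against 95.4, 86.8 and 103 RPKM in unwounded tamoxifen skin, a log2 difference of -2.47 ± 0.50 (limma adjusted p = 0.000941). The log2 differences were -2.24 ± 0.43 for Dlx3, -1.93 ± 0.33 for Fgf5, -1.54 ± 0.27 for Elf5 and -1.53 ± 0.21 for Tnfrsf19 (limma adjusted p = 0.000613, 0.000266, 0.000292 and 5.22e-05). The hair list stood beside them, with 5 of 11 lower in set B and a median log2 difference of -2.15, and its part was not tested.

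Rises in set B were led by Oasl2, at 14.6, 10.9, 13.6 and 10.7 RPKM in set B, against 2.2, 3.55 and 3.48 RPKM in unwounded tamoxifen skin, a log2 difference of 1.87 ± 0.32 (limma adjusted p = 0.000239). Inhba was at 4.03, 4.58, 3.68 and 4.1 RPKM in set B, against 0.818, 1.29 and 1.23 RPKM in unwounded tamoxifen skin, a log2 difference of 1.52 ± 0.15 (limma adjusted p = 1.8e-06). All wounded libraries were above all unwounded ones for both genes. Pdgfra was higher by 1.52 ± 0.16, Crabp2 by 1.47 ± 0.17 and Hrnr by 1.44 ± 0.36 (limma adjusted p = 3.57e-06, 1.01e-05 and 0.00385). Macrophage markers were higher in set B for 6 of 6, with summed RPKM of 957 to 1403 against 171 to 228 in unwounded tamoxifen skin, and fibroblast markers for 2 of 6. Their part in the rises was not tested. The 2 wound differences share no library, and Inhba had nearly the same value in each.

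**Figure D5:**
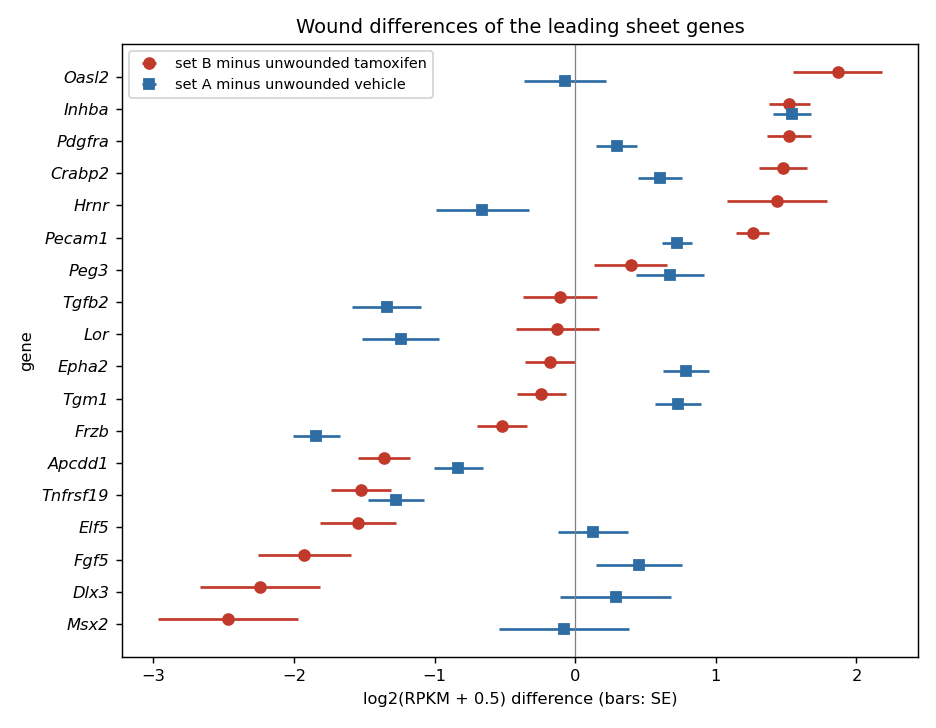
Wound differences of the 18 sheet genes named in either one, as differences of log2(RPKM + 0.5) with bars of 1 standard error. Red circles are set B minus unwounded tamoxifen and blue squares set A minus unwounded vehicle. Inhba sits near 1.5 in both, Msx2, Dlx3, Fgf5 and Elf5 fall in set B and lie near 0 or slightly above it in set A, and Frzb and Lor fall further in set A.

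Whether the wound difference differed with treatment was tested as the interaction, the set B difference minus the set A difference, which by construction also compares the 2 treatment differences. Of the 65 genes, 12 had a positive and 21 a negative interaction by limma, 50.8%, against 40% of all genes tested. Of all genes 19.7% had a positive and 20.2% a negative one. The strongest negative values were those of Dlx3 (-2.53 ± 0.58, limma adjusted p = 0.00417), Msx2 (-2.39 ± 0.68, limma adjusted p = 0.0132), Fgf5 (-2.38 ± 0.45, limma adjusted p = 0.00121), Elf5 (-1.67 ± 0.36, limma adjusted p = 0.00305) and Ovol1 (-1.49 ± 0.31, limma adjusted p = 0.00232). In each of the 5 the treatment difference was smaller in wounded than in unwounded skin. Without library 2 of set A they were -2.04 for Dlx3, -1.74 for Msx2, -2.17 for Fgf5, -1.46 for Elf5 and -1.40 for Ovol1, all still past the threshold. Tgm1 (-0.97 ± 0.24), Epha2 (-0.97 ± 0.24), Txnrd1 (-0.96 ± 0.11), Wnt5a (-0.89 ± 0.18) and Evpl (-0.83 ± 0.25) followed. The call of Evpl was lost without library 4 of unwounded tamoxifen skin (limma adjusted p = 0.053). Hair markers moved with the negative values, 7 of 11 lower with a median log2 interaction of -3.84, and cell cycle markers too, 6 of 6 lower with a median of -0.91. Their part was not tested.

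Positive interactions were led by Hrnr (2.10 ± 0.49, limma adjusted p = 0.0043) and Oasl2 (1.94 ± 0.43, limma adjusted p = 0.00335), whose falls with tamoxifen in unwounded skin were smaller between the wounded sets or did not pass there. Frzb (1.32 ± 0.24), Nrp1 (1.26 ± 0.27), Tgfb2 (1.24 ± 0.36), Pdgfra (1.22 ± 0.21), Vegfa (1.16 ± 0.29), Lor (1.11 ± 0.40) and Pecam1 (0.54 ± 0.16) had the same pattern. Lor's call was lost when any 1 of 10 of the 15 libraries was left out (limma adjusted p = 0.0615 to 0.0914, and 0.0721 without library 2 of set A). With the replicate number as a block its adjusted p was 0.0692 by limma. Crabp2 (0.87 ± 0.23, limma adjusted p = 0.00976) is the exception, since its treatment difference was larger in wounded skin. Under the names of the sample records, 15 genes had a positive and 37 a negative interaction, and that of Crabp2 turned round to -1.20. Usp18 (0.88 ± 0.41), Gbp3 (0.80 ± 0.37) and Gbp4 (0.01 ± 0.28) did not pass, and neither did Inhba (-0.02 ± 0.20, 95% interval -0.45 to 0.41). Macrophage markers had a positive interaction for 6 of 6 genes (median log2 interaction 2.31), fibroblast markers for 4 of 6 (median 1.02) and basal keratinocyte markers for 3 of 6 (median 0.66), and their part in the positive values was not tested. Without library 2 of set A, 11 genes had a positive and 18 a negative interaction. Hrnr was then 2.07, Oasl2 1.79 and Crabp2 0.89, all past the threshold, while Bmper, Ctnnb1, Lor and Tead2 lost their call.

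For comparison, 10 genes known as SOX2 targets in embryonic stem or progenitor cells and absent from the sheet were looked up. Only Ccnd1, Lefty1, Nanog and Nes were over the filter, and Fgf4, Utf1, Fbxo15, Pou5f1, Sall4 and Lin28b were not. The gene listed as Nanog averaged 6.31 ± 2.02 RPKM in unwounded tamoxifen skin, against 1.38 ± 0.108 RPKM in unwounded vehicle skin, a log2 difference of 1.82 ± 0.18 (limma adjusted p = 1.44e-06). Near-identical copies of this gene could share its reads, and no source at hand says how such reads were counted. The cyclin gene Ccnd1 was higher by 0.70 ± 0.21 and the Nodal inhibitor gene Lefty1 lower, with -0.57 ± 0.14 (limma adjusted p = 0.00955 and 0.00291), while Nes, with 0.28 ± 0.23, did not pass. None of the 4 passed between the wounded sets at the threshold. At an unadjusted p under 0.05 it was Lefty1 alone.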

How the data were processed

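RNA was sequenced from 15 libraries of whole mouse skin. Per the file headers, the authors mapped reads to mm10 with TopHat and computed RPKM per gene with Partek. The version was TopHat2 2.1.0 in the submitters' processing notes, which also list bcl2fastq. No header or label names the gene annotation, the counting rule or the use of strand. The deposited count of alignments per library, 39277860 to 75102345 per the file headers, served as depth. The authors' own test results and the values of the target sheet were not used, and of the sheet only its gene IDs were.

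Values were taken as log2(RPKM + 0.5) for the 13922 genes with at least 1 RPKM in at least 3 libraries. limma 3.58.1 in R 4.3.3 (trend, two-sided) was fitted once to the 4 groups, with 11 residual and 2.57 prior degrees of freedom. P-values were adjusted by Benjamini-Hochberg over all genes tested, with a threshold of 0.05. The script was first run on simulated data with known changes. Tables and figures were made with Python 3.11.15, pandas 2.3.3, numpy 2.4.6 and matplotlib 3.10.9. Promoter windows are those of RefSeq on GRCm38.p6, and positions of genes are from GENCODE M21 on mm10.

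The members and gene lists were chosen with earlier results of these data known. Genes named are the 8 with the largest rise and the 8 with the largest fall past the threshold in each treatment difference, 5 each way in the wound differences, up to 10 each way in the interaction, the 6 with the highest mean RPKM and the members under the filter. Others are examples of their role, and a few genes are not reported here. No label says that the libraries of a group came from separate animals, so p-values measure the spread between these libraries. Same-numbered libraries of sets B and A deviated together in all 4 pairs (correlation of deviations 0.123 to 0.43). Those numbers were taken to pair the sets, which no label states, while the other groups were not paired. The pairing was thus inferred from the same values that were then tested with it. Differently numbered libraries were not compared, and library 3 of unwounded vehicle skin and library 3 of set A had 0.425 as well. Calls with the block rest on this assumption. Alternatives tried were pseudocounts of 0.1 and 1, no filter, a filter in 7 libraries, median-of-ratios and upper-quartile scaling, library weights, only the groups compared, a replicate block, each library left out and the names of the sample records.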

Additional observations from a re-analysis of the deposited data

Results flagged for a closer look

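Among 34 named genes, 102 groups of 4 libraries were looked at for a library far from the other three (Dixon's test), and 3 were found, where chance gives about 5% of groups. Msx2 was at 9.42 RPKM in library 2 of set A and at 0.974 to 1.34 RPKM in the rest of that set. Klf4 was at 152 RPKM in library 4 of set A and at 101 to 108 RPKM in the rest. Dlx3 was at 4.66 RPKM in library 4 of unwounded vehicle skin, against 5.56 to 5.69 RPKM in the rest of that group.

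The treatment difference differed between wounded and unwounded skin by limma's interaction term (adjusted p under 0.05 over all genes) for 33 of the 65 genes. That is 50.8%, against 40% of all genes tested. The 20 given here are the 10 largest in each direction, as named by rule. The log2 interaction was negative for Dlx3 (-2.53), Msx2 (-2.39), Fgf5 (-2.38), Elf5 (-1.67), Ovol1 (-1.49), Tgm1 (-0.97), Epha2 (-0.97), Txnrd1 (-0.96), Wnt5a (-0.89) and Evpl (-0.83). All 10 were higher with tamoxifen in unwounded skin. The unwounded treatment difference enters the interaction with a minus sign, so this direction, and the opposite one below, is partly built in. It was positive for Hrnr (2.10), Oasl2 (1.94), Frzb (1.32), Nrp1 (1.26), Tgfb2 (1.24), Pdgfra (1.22), Vegfa (1.16), Lor (1.11) and Pecam1 (0.54), all of them lower with tamoxifen in unwounded skin, and for Crabp2 (0.87), which passed between the wounded sets alone.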

How the results depend on the processing

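The names of the wounded sets decided most. Under those of the sample records, 32 members were higher and 17 lower in wounded than in unwounded vehicle skin, and 38 were lower in wounded than in unwounded tamoxifen skin. The interaction was then negative for 37 members (9538 of all genes passed), and that of Crabp2 was -1.20. Every other alternative kept the counts of members called within 1.5 times, among them pseudocounts, filters, scalings and weights. With library weights, whose estimate did not fully converge, 7041 of all genes passed between sets B and A. The cause was not tested.

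With each library left out in turn, 31 to 36 members were higher and 14 to 18 lower in unwounded tamoxifen skin. In set B, 19 (without library 4 of set B) to 31 (without library 4 of set A) were higher than in set A and 7 to 8 lower. The ranges were 9 to 13 higher and 9 to 14 lower for set A against unwounded vehicle, 8 to 12 and 20 to 25 for set B against unwounded tamoxifen, and 10 to 14 and 17 to 22 for the interaction. Between sets B and A, Lor ranged from -0.19 to 0.33 on the log2 scale and Klf4 from -0.042 to 0.15, neither past the threshold.

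With the replicate block, 33 members were higher and 18 lower in unwounded tamoxifen skin, 27 and 7 in set B against set A, 13 and 11 in set A against unwounded vehicle, 10 and 24 in set B against unwounded tamoxifen, and 12 and 20 in the interaction. In a fit of sets B and A alone with the block, added after seeing the data, 25 were higher and 7 lower of 63 tested. Among genes named by rule the block ended the interaction call of Lor (1.03) and changed no other call. Among all members it added 1 call and ended 1 in unwounded skin (Dusp1 lower, Dusp4 lost), where the numbers do not pair the groups. It added 4 between the wounded sets, added 3 and ended 2 in set A against unwounded vehicle, and added 1 and ended 2 in the interaction. Of 2005 values of named genes under the alternatives, 1954 kept direction and side of the threshold, 41 lost the call and 10 turned round, in 9 of 82 gene results. Depth limits the genes under the filter: 3 reads correspond to 0.0399 to 0.0764 RPKM for a gene of 1 kb.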
